A study of Mus musculus with 2 samples.

Results

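The miR-181a and miR-181b hairpins, Mir181a-1, Mir181a-2, Mir181b-1 and Mir181b-2, are 4 of 1174 annotated miRNA hairpins of the mouse. They were followed through small RNA libraries of a nuclear and a cytoplasmic fraction, with the 5p arms set against the 3p arms in each. Members were all listed sequences that matched one of the 4 hairpins on the sense strand, over the full length or with up to 3 unmatched bases at the 3′ end. This gave 227 of the 538100 sequences listed, 134 of them with reads in the nuclear and 196 with reads in the cytoplasmic library. They held 4598 nuclear and 7406 cytoplasmic reads, 0.230% of the reads in the nuclear and 0.363% in the cytoplasmic library.

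Both libraries came from bone marrow-derived dendritic cells of C57BL/6 mice, cultured for 7 days with GM-CSF and IL-4 and then exposed to lipopolysaccharide (LPS). The nuclear library was made from the nucleus-containing pellet left after swelling the cells in a hypotonic buffer with NP40, and the cytoplasmic library from the fraction above it. The dose and duration of LPS and the number of mice are not given in the sources used, and no unstimulated cells were analysed here, so no value shows a response to LPS. Each fraction had 1 library, so no difference has a replicate check, no p-value is given, and each ratio compares these libraries only. The 95% intervals cover counting error only, since PCR copies cannot be told from separate molecules here.

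A miRNA hairpin is cut to a short duplex, and an Argonaute protein usually keeps one strand, the guide, while the other, the passenger, is degraded. The guide pairs with target mRNAs mainly through its seed, bases 2 to 8. In the miR-181 family the 5p arm is the usual guide. miR-181a is best known in lymphocytes, where it tunes T cell receptor signalling in thymocytes and influences B cell development, and family members are also expressed in myeloid cells. Most Argonaute-bound miRNA is found in the cytoplasm.

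The mature sequences below are those of RefSeq (GRCm38.p6), with the seed in capitals. They are shown because they decide which reads can be told apart.

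miR-181a-5p: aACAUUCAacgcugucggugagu

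miR-181b-5p: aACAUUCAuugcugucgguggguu

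miR-181a-1-3p: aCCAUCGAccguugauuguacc

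miR-181a-2-3p: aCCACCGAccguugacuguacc

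miR-181b-1-3p: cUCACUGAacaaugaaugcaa

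miR-181b-2-3p: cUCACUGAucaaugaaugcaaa

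The seed ACAUUCA is shared by the 5p arms of miR-181a, miR-181b and the other family members, miR-181c and miR-181d. The 3p arms carry other seeds. Those of Mir181a-1 and Mir181a-2 differ by U5C and U16C, and those of Mir181b-1 and Mir181b-2 by A9U over their shared length, with positions counted from 1 at the 5′ end and the first-named arm's base first. A 3p read therefore names its hairpin. A 5p read usually does not, because the 5p arms of both miR-181a hairpins are identical, as are those of both miR-181b hairpins, and these reads were kept as miR-181a-5p and miR-181b-5p.

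Mir181a-1 lies at chr1:137966455-137966541 and Mir181b-1 at chr1:137966639-137966718, both on the plus strand of GRCm38. Both are within an intron of the non-coding gene Gm4258. Mir181b-1 lies wholly in an exon of the lincRNA A430106G13Rik, which also covers the last 11 nt of the Mir181a-1 hairpin. Mir181a-2 (chr2:38852735-38852810) and Mir181b-2 (chr2:38853830-38853918), also on the plus strand, are antisense to an intron of the nuclear receptor gene Nr6a1. Mir181b-2 is in addition antisense to an exon of Gm44144.

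The libraries were of like depth, with 2000019 nuclear and 2041383 cytoplasmic reads, and a single read corresponded to 0.50 RPM (reads scaled to the library total) for the nuclear fraction and 0.49 for the cytoplasmic. Sequences matching miRNA hairpins took 40.0% of nuclear and 74.7% of cytoplasmic reads, so the RPM of any single miRNA depends on the rest of its library. Small nucleolar RNA fragments, markers of the nucleus, took 8.86% of nuclear and 0.278% of cytoplasmic reads. Mitochondrial ribosomal RNA, which lies outside the nucleus, was only slightly lower in the nuclear library, at 0.166% of its reads against 0.191% of cytoplasmic ones, whereas mitochondrial tRNA was much lower there, at 0.0601% against 0.155%. The part of RNA from outside the nucleus in the miR-181 levels was not tested. All 5 miRNAs taken as myeloid markers were present, among them miR-155-5p (12219 nuclear and 9002 cytoplasmic reads), miR-142-5p (3218 and 5565) and miR-223-3p (392 and 612). Whether they came from myeloid cells only was not tested. The lymphoid marker miR-150-5p had 0 nuclear and 1 cytoplasmic read, and the erythroid miR-451a-5p had 0 and 2. The other erythroid marker, miR-144-3p, had no read in either library. The liver miR-122-5p had 287 nuclear and 24 cytoplasmic reads and the muscle miR-1a-3p had 108 and 7, and the part of RNA from other tissues in the miR-181 levels was not tested.

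The guide arms made up nearly all of the family. miR-181a-5p had 2896 nuclear and 4112 cytoplasmic reads, or 1448 RPM in the nuclear (95% Poisson interval 1396 to 1502) and 2014 RPM in the cytoplasmic library (1953 to 2077). By read number it ranked 35 of the 596 miRNA arms seen in the nuclear library and 35 of 630 in the cytoplasmic library. miR-181b-5p had 1693 nuclear and 3230 cytoplasmic reads, or 846 RPM (807 to 888) in the nuclear and 1582 RPM (1528 to 1638) in the cytoplasmic library. It ranked 44 in the nuclear and 39 in the cytoplasmic library, and in both libraries its interval lay below that of miR-181a-5p. With levels per library, fewer cells that carry a miRNA and less of it per cell cannot be told apart.

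The passenger arms were scarce in both libraries and scarcer in the nuclear one. miR-181a-1-3p had 8 nuclear and 46 cytoplasmic reads, or 4.0 RPM (1.73 to 7.88) in the nuclear and 22.5 RPM (16.5 to 30.1) in the cytoplasmic library. miR-181b-1-3p had 1 nuclear and 17 cytoplasmic reads, or 0.50 RPM (0.0127 to 2.79) in the nuclear and 8.33 RPM (4.85 to 13.3) in the cytoplasmic library. The passenger arms of the chromosome 2 copies were near or at 0. miR-181a-2-3p had 0 nuclear and 1 cytoplasmic read, and miR-181b-2-3p had no read in either library, with an upper Poisson limit of 1.84 RPM for the nuclear library and 1.81 RPM for the cytoplasmic one. Of the 9 nuclear and 64 cytoplasmic passenger reads, 1 cytoplasmic read came from chromosome 2 and the rest from the chromosome 1 hairpins. Which copy supplied the guide reads cannot be told from identical sequences.

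**Figure D1:**
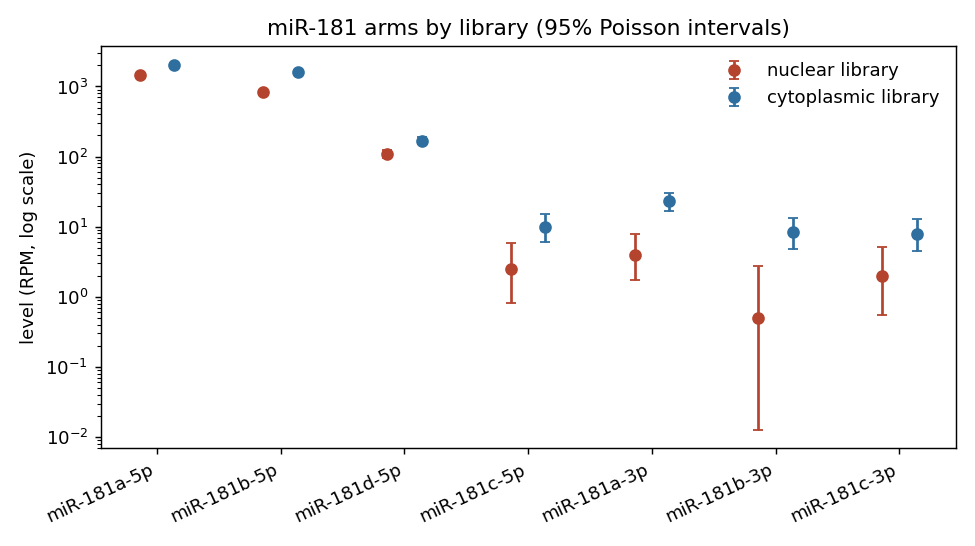
Level in RPM (log scale) of each miR-181 arm with reads in both libraries, nuclear on the left and cytoplasmic on the right of each pair, with 95% Poisson intervals and 1 library per point. In RPM the nuclear points sit below the cytoplasmic ones in all 7 arms, most for miR-181b-3p at 0.50 against 8.33 RPM, whereas under the other scalings miR-181a-5p turns to higher in the nuclear library and miR-181d-5p lies between 1.02 and 1.22 times its cytoplasmic level. miR-181d-3p had no read and is not drawn.

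Set as nuclear over cytoplasmic RPM, the guide arms were moderately lower and the passenger arms far lower in the nuclear library. The ratio was 0.719 for miR-181a-5p (95% interval 0.685 to 0.754) and 0.535 for miR-181b-5p (0.504 to 0.568), which as log2 ratios, with 0.5 reads added to each count, are -0.48 and -0.90. The direction for miR-181a-5p depends on the scaling, since scalings that set each arm against the other miRNAs raise every log2 ratio by 0.73 (TMM factors), 0.64 (median of ratios) or 0.90 (miRNA total). With them miR-181a-5p turned to higher in the nuclear library, at 1.19, 1.12 and 1.34 in that order, while miR-181b-5p moved to 0.887, 0.833 and 0.999.

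For the 3p arms the ratio was 0.174 for miR-181a-3p (0.0709 to 0.371), with 8 nuclear and 47 cytoplasmic reads over both copies, a log2 ratio of -2.45. It remained below 1 under the other scalings, at 0.288, 0.271 and 0.325, and each interval excluded 1. For miR-181b-3p the ratio was 0.0600 (0.00144 to 0.383), resting on a single nuclear read. Its upper limit stayed below 1 under the other scalings as well.

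A miRNA arm was called higher or lower when the difference was at least 2-fold and 1 lay outside the interval. Of the 3 member arms with at least 50 reads over both libraries, miR-181a-3p was called lower and the guide arms were not called. Over all 215 miRNA arms with that many reads, 60 were lower (27.9%) and 25 higher (11.6%). Other scalings shifted this split. TMM factors gave 38 arms higher and 13 lower, median-of-ratios factors 37 and 17, and scaling to all miRNA reads 44 and 9. The median log2 ratio over the 215 arms was -0.63, and the middle of the distribution ran from -1.08 to -0.14 between its quartiles. Both guide arms lay within these quartiles. Only 1 of the 215 arms had a log2 ratio below that of miR-181a-3p. However, miR-181a-3p reached the minimum of 50 reads mostly through the cytoplasmic library, with 8 nuclear and 47 cytoplasmic reads. Scarcer arms did not enter, such as miR-181b-3p, with a log2 ratio of -3.51 from 1 nuclear and 17 cytoplasmic reads. The call and the position of miR-181a-3p are therefore a description only.

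The arm comparison within each library does not depend on scaling. In the nuclear library 0.275% of miR-181a reads were 3p (8 of 2904, exact 95% interval 0.119% to 0.542%), against 1.13% in the cytoplasmic library (47 of 4159, 0.831% to 1.5%). For miR-181b the share was 0.0590% in the nuclear library (1 of 1694, 0.00149% to 0.328%) and 0.524% in the cytoplasmic library (17 of 3247, 0.305% to 0.837%). Over the 4 hairpins together, 0.196% of nuclear reads (9 of 4598, 0.0895% to 0.371%) and 0.864% of cytoplasmic reads (64 of 7406, 0.666% to 1.10%) came from passenger arms. The intervals of the libraries did not overlap for miR-181a or for the 4 hairpins together, and for miR-181b they overlapped slightly.

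Written as guide reads per passenger read, miR-181a had 362 in the nuclear and 87.5 in the cytoplasmic library, and the 4 hairpins together 510 in the nuclear and 115 in the cytoplasmic library. The odds of a 3p read in the nuclear relative to the cytoplasmic library were 0.242 for miR-181a (exact 95% interval 0.0985 to 0.517), 0.112 for miR-181b (0.00268 to 0.718) and 0.225 for both together (0.0983 to 0.455). All 3 intervals lay below 1. With the most abundant sequence of each arm alone, that of miR-181a held 1 (0.0299 to 1.38 around 0.285), and with full-length matches alone so did that of miR-181b (0 to 1.94), which then had no nuclear 3p read.

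**Figure D2:**
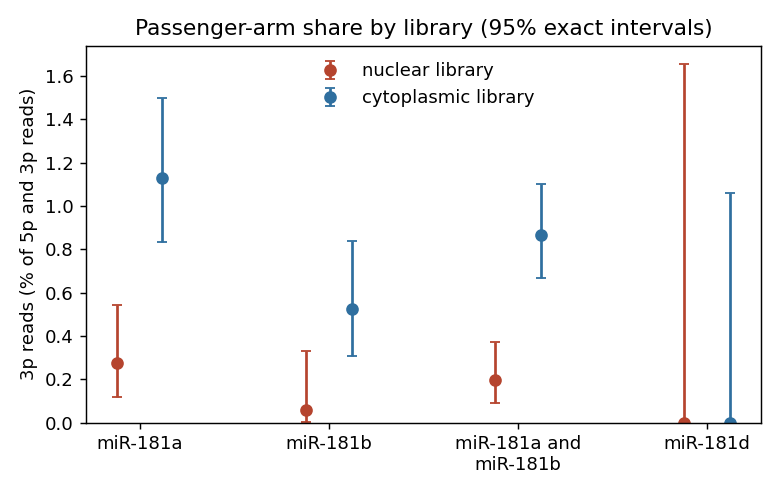
Share of 3p reads among 5p and 3p reads, in percent, for miR-181a, miR-181b, both together and miR-181d, nuclear left of cytoplasmic, with exact 95% intervals. For miR-181a the nuclear share of 0.275% sits below the cytoplasmic 1.13%; miR-181d had no 3p read, and its intervals show only how far a count of 0 reaches.

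The other family members gave a wider view of the arms. miR-181d-5p, which differs from miR-181b-5p by C12U, had 221 nuclear and 346 cytoplasmic reads, a ratio of 0.652 (0.548 to 0.774) that lay between those of miR-181a-5p and miR-181b-5p. Under the other scalings, tried for this arm after seeing the data, its ratio was 1.08 with TMM factors (0.909 to 1.28), 1.02 with the median of ratios (0.854 to 1.21) and 1.22 with the miRNA total (1.02 to 1.45). The first and second of these intervals held 1. No miR-181d-3p read was seen, and the exact 95% interval of its 3p share reached 1.66% in the nuclear and 1.06% in the cytoplasmic library. miR-181c was rare, with 5 nuclear and 20 cytoplasmic 5p reads and 4 nuclear and 16 cytoplasmic 3p reads. Its 3p share was 44.4% in both libraries (4 of 9 nuclear reads, 13.7% to 78.8%, and 16 of 36 cytoplasmic reads, 27.9% to 61.9%). At this depth its odds ratio of 1.0 had an interval of 0.169 to 5.53, which holds the value of miR-181a, so a difference of that size was not detectable. Its 3p arm has the same seed, CCAUCGA, as miR-181a-1-3p.

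To set miR-181a among other miRNAs, 72 miRNAs with at least 20 reads of each arm, counted over both libraries, were used. The arm with fewer reads was taken as the minor arm of each. The minor arm was called lower or higher in the nuclear library when the odds ratio reached 2-fold and its interval excluded 1. It was lower for 15 miRNAs (20.8%), miR-181a among them, and higher for 14 (19.4%). The median odds ratio was 0.805, with 41 values below 1 and 30 above. miR-181a had the lowest odds ratio but 6. Over all 72, the minor arm was thus called lower about as often as higher. miR-181a was 1 of several miRNAs in which the minor arm was lower. The 41 miRNAs whose minor arm was 3p, as in miR-181a, had a median log2 odds ratio of -0.42. The odds were lower in the nuclear library for 24 of them and higher for 16. The 31 with a 5p minor arm had a median of -0.12, with 17 lower and 14 higher. miR-181b had too few passenger reads to enter.

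By the distance between log2 ratios of both arms over these libraries, the miRNAs nearest to miR-181a (log2 ratios of -0.48 for 5p and -2.45 for 3p) were miR-191, miR-322 and miR-361. miR-191 had 17179 nuclear and 28114 cytoplasmic 5p reads and 5 nuclear and 25 cytoplasmic 3p reads, log2 ratios of -0.68 and -2.18. miR-322 had log2 ratios of -0.30 for 5p and -2.03 for 3p, but there the 5p is the minor arm, so its share was higher in the nuclear library (38.5% against 15.9%). miR-361 had 135 nuclear and 157 cytoplasmic 5p reads and 3 nuclear and 25 cytoplasmic 3p reads, log2 ratios of -0.19 and -2.84.

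The largest falls of the minor arm share in the nuclear library belonged to miR-200b (1.16% of nuclear against 11.5% of cytoplasmic reads), miR-361 (2.17% against 13.7%) and miR-30d (0.0824% against 0.572%). Their odds ratios were 0.0909 (0.00215 to 0.592), 0.140 (0.0265 to 0.475) and 0.143 (0.0164 to 0.581). These intervals overlap that of miR-181a. The minor arms of these 3 miRNAs had 1, 3 and 2 nuclear against 19, 25 and 23 cytoplasmic reads, in that order. They reached the minimum of reads mostly through the cytoplasmic library, as did miR-181a-3p with 8 and 47. The ranking is therefore a description of few nuclear reads only.

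**Figure D3:**
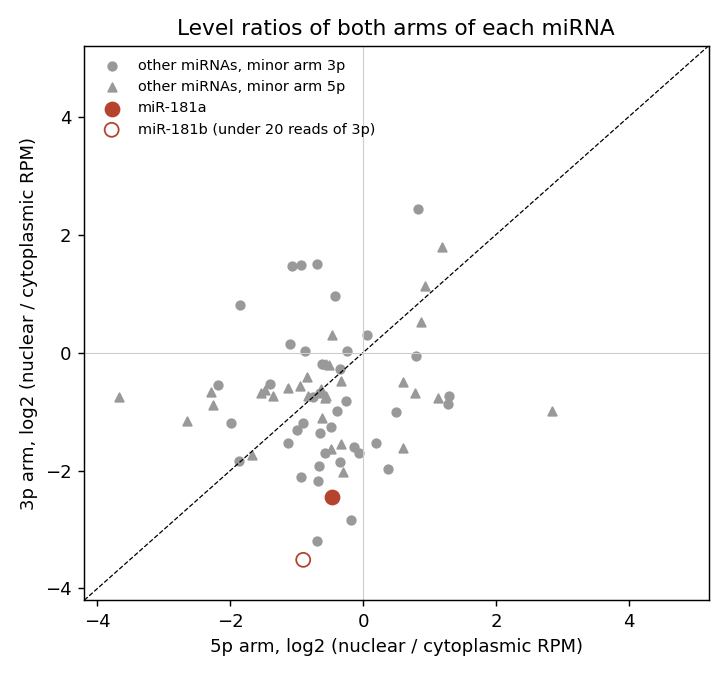
Log2 ratio of nuclear over cytoplasmic RPM of the 3p arm against that of the 5p arm, 1 point per miRNA with at least 20 reads of each arm, and miR-181b added as an open circle. Points below the dashed line of equal ratios have a lower log2 ratio for the 3p arm than for the 5p arm, whichever arm has more reads. miR-181a lies below the line at -0.48 for 5p and -2.45 for 3p.

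Among the guide arms, miR-181b-5p made up a smaller part of the nuclear than of the cytoplasmic library. It gave 36.9% of the nuclear (35.5% to 38.3%) and 44.0% of the cytoplasmic reads (42.9% to 45.1%) of both guide arms, an odds ratio of 0.744 (0.689 to 0.803). The arms share a seed and differ in length, and their sequence variants were therefore compared by length.

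The most abundant variants are given as listed in the deposited file, as DNA letters with the seed in capitals.

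miR-181a-5p, 22 nt: aACATTCAacgctgtcggtgag

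miR-181a-5p, 21 nt: aACATTCAacgctgtcggtga

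miR-181a-5p, 24 nt: aACATTCAacgctgtcggtgagtt

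miR-181b-5p, 22 nt: aACATTCAttgctgtcggtggg

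miR-181b-5p, 24 nt: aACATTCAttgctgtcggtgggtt

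miR-181b-5p, 21 nt: aACATTCAttgctgtcggtgg

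The leading miR-181a-5p form, of 22 nt, had 1159 nuclear and 1487 cytoplasmic reads, a ratio of 0.796 (0.736 to 0.860). The 21-nt form had 512 nuclear and 786 cytoplasmic reads (0.665, 0.594 to 0.744), and the 24-nt form had 379 and 622 (0.622, 0.546 to 0.708). For miR-181b-5p the 22-nt form had 350 nuclear and 552 cytoplasmic reads (0.647, 0.564 to 0.741), the 24-nt form 266 and 557 (0.487, 0.420 to 0.565), and the 21-nt form 241 and 420 (0.586, 0.498 to 0.688). The leading 22-nt form thus had the highest ratio of the 3 in both arms, and its interval lay clear of that of the 24-nt form for miR-181a-5p, and just touched it for miR-181b-5p.

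Longer guide variants were less frequent in the nuclear library. Reads of 24 nt or longer were 25.2% of nuclear (23.6% to 26.8%) and 31.1% of cytoplasmic miR-181a-5p reads (29.7% to 32.5%), an odds ratio of 0.745 (0.669 to 0.830). For miR-181b-5p they were 40.6% of nuclear (38.3% to 43.0%) and 50.9% of cytoplasmic reads (49.2% to 52.6%), an odds ratio of 0.660 (0.585 to 0.745). For miR-181d-5p they were 40.3% of nuclear and 48.0% of cytoplasmic reads, an odds ratio of 0.732 whose interval held 1 (0.512 to 1.04).

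**Figure D4:**
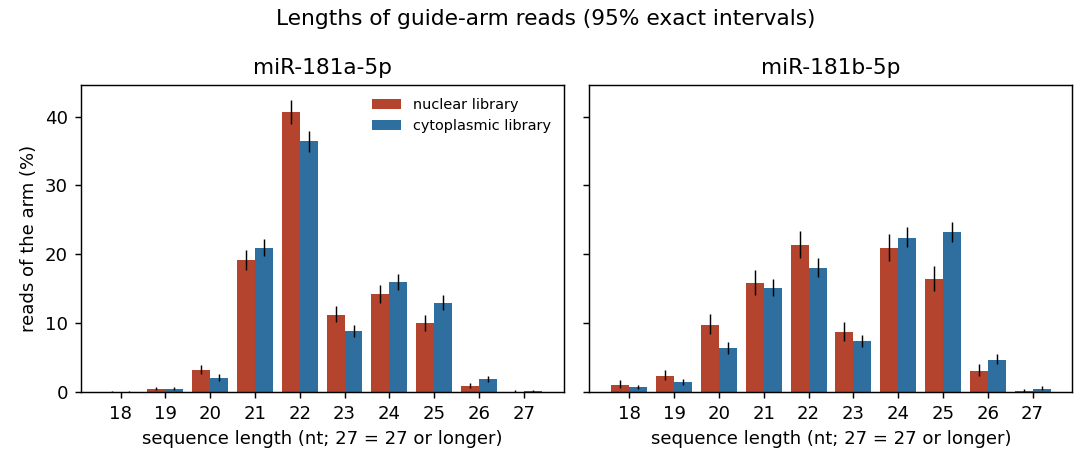
Length distribution of miR-181a-5p (left panel) and miR-181b-5p (right panel) reads, in percent of the arm's reads, with nuclear bars left of cytoplasmic bars and exact 95% intervals. In miR-181b-5p, 25-nt reads were 16.4% of nuclear and 23.2% of cytoplasmic reads, and 20-nt reads were 9.81% of nuclear and 6.35% of cytoplasmic reads.

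By length, the ratio of miR-181a-5p was 1.09 at 20 nt (0.806 to 1.48), 0.656 at 21 nt (0.589 to 0.731), 0.803 at 22 nt (0.743 to 0.867) and 0.914 at 23 nt (0.785 to 1.06). It was 0.639 at 24 nt (0.563 to 0.723), 0.554 at 25 nt (0.479 to 0.641) and 0.319 at 26 nt (0.195 to 0.505). The order was not even, since 21-nt reads had a lower ratio than 22-nt and 23-nt reads. For miR-181b-5p the ratio was 0.827 at 20 nt (0.669 to 1.02) and 0.560 at 21 nt (0.481 to 0.652). It was 0.634 at 22 nt (0.554 to 0.724) and 0.635 at 23 nt (0.513 to 0.783). At 24 nt it was 0.498 (0.438 to 0.567) and at 25 nt 0.379 (0.329 to 0.435). Here too the 21-nt reads had a lower ratio than the 22-nt and 23-nt reads, though with overlapping intervals.

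At 22, 23, 24 and 25 nt the ratio of miR-181b-5p was below that of miR-181a-5p, and the intervals of the arms overlapped at none of these lengths but 24 nt. At 20 and 21 nt it was also lower, with overlapping intervals, and at 26 nt the order turned, with 0.354 for miR-181b-5p (0.254 to 0.486).

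**Figure D5:**
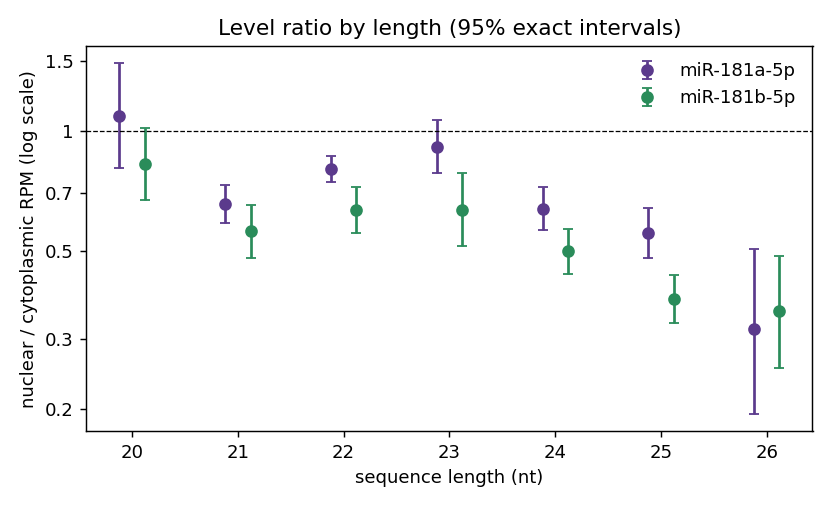
Nuclear over cytoplasmic RPM (log scale) of miR-181a-5p and miR-181b-5p reads by length in nt, with exact 95% intervals and a dashed line at equal levels. Over the lengths drawn, the ratio is lowest at 26 nt in both arms, at 0.319 for miR-181a-5p and 0.354 for miR-181b-5p. Other scalings move all points up alike and keep their order.

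Over the 214 miRNA arms with reads in both libraries and at least 50 in all, the difference in mean length, nuclear minus cytoplasmic, had a median of -0.03 nt, with 125 arms shorter and 88 longer in the nuclear library. Mean length was 22.5 nt in the nuclear and 22.6 nt in the cytoplasmic library for miR-181a-5p (a difference of -0.15 nt), and 22.7 and 23.1 nt for miR-181b-5p (-0.42 nt). A lower difference than these was seen in 63 and 18 of the 214 arms. The share of reads of 24 nt or longer differed by -10.3 percentage points for miR-181b-5p and -5.93 for miR-181a-5p, and 9 and 27 arms had lower differences, against a median of -0.19. Many arms had few reads of that length and little room to fall, such as let-7f-5p (0.829% nuclear, 0.933% cytoplasmic). Arms with many long reads varied. Some fell as far (miR-7-5p -10.4, miR-221-5p -16.2), some less (miR-30d-5p -2.57), and some rose (miR-30a-5p 3.76).

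Part of the long miR-181b-5p reads carried 3′ bases that neither hairpin encodes. Unmatched 3′ bases were seen in 23.2% of nuclear (21.2% to 25.3%) and 28.4% of cytoplasmic miR-181b-5p reads (26.8% to 30.0%), an odds ratio of 0.763 (0.663 to 0.876). In miR-181a-5p they were seen in 6.28% of nuclear (5.43% to 7.23%) and 7.59% of cytoplasmic reads (6.80% to 8.44%), an odds ratio of 0.817 (0.672 to 0.99). This odds ratio turned to 1.09, with an interval that held 1 (0.847 to 1.39), when only sequences of 20 to 24 nt were counted, and that of miR-181b-5p was then 0.869 and held 1 as well (0.703 to 1.07). Sequencing errors near the 3′ end also count as unmatched bases. Over the 214 arms the share differed by a median of -0.65 percentage points, nuclear minus cytoplasmic, against -5.18 for miR-181b-5p and -1.30 for miR-181a-5p. A lower difference was seen in 39 arms for miR-181b-5p and in 83 for miR-181a-5p, which lay within the quartiles of -3.74 and 1.56.

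The variants of miR-181b-5p that share its first 23 nt show which bases were added. Below, the first 23 nt are in lower case and what follows is in capitals.

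23 nt, matched: aacattcattgctgtcggtgggt

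24 nt, matched in both hairpins: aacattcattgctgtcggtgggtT

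25 nt, matched in Mir181b-2 only: aacattcattgctgtcggtgggtTT

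24 nt, last base unmatched: aacattcattgctgtcggtgggtA

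25 nt, last 2 bases unmatched: aacattcattgctgtcggtgggtAT

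25 nt, last base unmatched: aacattcattgctgtcggtgggtTA

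25 nt, last 2 bases unmatched: aacattcattgctgtcggtgggtAA

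The 23-nt form had 114 nuclear and 189 cytoplasmic reads, a ratio of 0.616 (0.484 to 0.781). With AT added it had 92 nuclear and 217 cytoplasmic reads (0.433, 0.335 to 0.555), with AA 20 and 66 (0.309, 0.178 to 0.517), with TA 32 and 98 (0.333, 0.216 to 0.501), and with A 55 and 108 (0.520, 0.369 to 0.726). The 25-nt forms that end in AT, AA and TA thus all had a lower ratio than the 23-nt form, though the interval of AT and of AA overlapped its interval, and that of TA did so narrowly. Matched forms of the same lengths were low too, at 0.487 for the 24-nt T form (0.420 to 0.565) and 0.326 for the 25-nt TT form (0.257 to 0.410). The interval of each unmatched form overlapped that of the matched form of its length, so unmatched forms were not set apart from matched ones. A single unmatched T was also less frequent in the nuclear library, in 1.42% of miR-181b-5p reads against 2.76% in the cytoplasmic library. Its odds ratio was 0.508 (0.308 to 0.808). An unmatched TT had 0 nuclear and 4 cytoplasmic reads. Some other unmatched ends did not share this direction. Ends of 3 unmatched bases were 3.78% of nuclear and 2.94% of cytoplasmic miR-181b-5p reads, an odds ratio of 1.30 (0.924 to 1.81), and a single unmatched C or G had odds ratios of 1.43 (0.409 to 4.72) and 1.19 (0.307 to 4.14). The intervals of the 3-base, C and G ends all held 1.

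The 25-nt form that ends in TT is encoded by Mir181b-2 but not by Mir181b-1. It had 98 nuclear and 307 cytoplasmic reads, a ratio of 0.326 (0.257 to 0.410), below the interval of the 23-nt form. Reads that matched Mir181b-2 only were 7.09% of nuclear (5.91% to 8.42%) and 12.2% of cytoplasmic miR-181b-5p reads (11.1% to 13.3%), with 120 and 393 reads. Since a T added to the 24-nt form of either hairpin gives the same letters, these reads may come from Mir181b-1 as well, and they do not measure the Mir181b-2 copy. Reads that matched Mir181b-1 only numbered 2 nuclear and 3 cytoplasmic.

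The 5′ ends of the guide arms, which set the seed, were nearly uniform. They lay at the annotated base in 99.7% of nuclear and 99.6% of cytoplasmic miR-181a-5p reads, and in 99.1% of nuclear and 98.8% of cytoplasmic miR-181b-5p reads. No member read began more than 4 nt from the start of an annotated arm. A read of the loop alone could mostly not be seen, since the stretch between the annotated arms is shorter than the shortest listed sequence in all member hairpins but Mir181a-2.

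The passenger reads are few, and their forms can be counted singly. The leading miR-181a-1-3p sequence (accatcgaccgttgattgtac, 21 nt) had 2 nuclear and 9 cytoplasmic reads, and an 18-nt form (accatcgaccgttgattg) had 4 nuclear and 6 cytoplasmic reads. All 8 nuclear reads of miR-181a-3p were of 18, 20 or 21 nt, while 16 of 47 cytoplasmic reads (34.0%) were of 22 nt, the annotated length. The exact 95% interval of the nuclear share at 22 nt reached 36.9% and so held the cytoplasmic share. These 16 reads include 5 of a form that began 1 base early. In the cytoplasmic library 10 of the 47 reads began 1 base before the annotated start, led by aACCATCGaccgttgattgtac with 5 reads, which puts other bases in the seed (in capitals). None of the 8 nuclear reads did so, and with 8 reads a share of up to 36.9% is within the exact 95% interval.

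The leading miR-181b-1-3p sequence was ctcactgaacaatgaatgcaT, with its unmatched last base in capitals. It had no nuclear and 8 cytoplasmic reads. Of the 17 cytoplasmic reads of this arm, 12 carried unmatched 3′ bases, and so did its single nuclear read.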

How the data were processed

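Values were deposited by the authors as RPM, reads scaled to the total of listed reads, for 538100 sequences of 18 to 39 nt, in a nuclear and a cytoplasmic column identified by the last letter of their headers. CASAVA and mm10 are named in the submitters' processing notes. The sources used here do not state how reads were trimmed, aligned or filtered. All values above 0 (100% in each column) were whole multiples of 1 read within 0.001 read, so whole reads were recovered. With 1 library in each group edgeR's count test could not be fitted, for want of residual degrees of freedom. Sequences were matched to GENCODE vM21 hairpins (GRCm38, which is mm10) with at least 18 matched nt, and a read's arm was set by which side of the hairpin's middle its centre lay on. A sequence shared by differently named miRNAs formed an entry only where it outnumbered each miRNA's own reads. Ratios have exact conditional intervals and shares Clopper-Pearson intervals (SciPy 1.17.1). TMM factors came from edgeR 4.0.16. Matching, calls and intervals were tested on simulated data. The named miRNAs were the members, miR-181c, miR-181d, the 3 miRNAs nearest to miR-181a and the 3 with the largest fall of the minor arm. Members, lists and tests were chosen with earlier results of these data known.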

Additional observations from a re-analysis of the deposited data

How the results depend on the processing

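No paired analysis was possible because each fraction had 1 library. The ratio of miR-181a-5p was 1.19 (TMM factors), 1.12 (median of ratios) and 1.34 (miRNA total), and that of miR-181b-5p was 0.887, 0.833 and 0.999, because these scalings raise every log2 ratio by 0.73, 0.64 and 0.90. Arms called higher and lower were 25 and 60 with RPM, 38 and 13 with TMM factors, 37 and 17 with the median of ratios, 44 and 9 with the miRNA total, and 51 and 96 of 746 arms without a minimum of reads. With sequences of 20 to 24 nt the ratio was 0.754 for miR-181a-5p and 0.592 for miR-181b-5p, the odds ratio of long miR-181b-5p reads was 0.783, and that of unmatched bases in miR-181a-5p reversed to 1.09. The cause was not tested. With the most abundant sequence alone the ratios were 0.796 and 0.647, and the cytoplasmic 3p share was 0.602% for miR-181a and 1.43% for miR-181b. Full-length matches gave miR-181b-5p 0.574 and a cytoplasmic miR-181b 3p share of 0.216%. Sequences in no other annotated transcript gave it 0.312, since the exon of A430106G13Rik removes all Mir181b-1 reads and leaves 0 3p reads in either library. Apart from such host transcripts, a setting chosen after seeing the data, no value moved. The single nuclear miR-181b-3p read was lost, giving a ratio, share and odds ratio of 0, with full-length matches, the commonest 5′ end, at least 2 reads per sequence and the most abundant sequence. For miR-181a the odds ratio of a 3p read ranged from 0.169 to 0.307 over the sequence alternatives, and with the most abundant sequence alone (0.285) its interval held 1 (0.0299 to 1.38). The odds ratio of unmatched bases in miR-181b-5p, 0.869 with sequences of 20 to 24 nt, also had an interval that held 1 (0.703 to 1.07). Passenger reads limit precision, with 9 nuclear reads in all.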

Other observations

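Fragments of the genes around the hairpins were almost absent. Gm4258, whose intron holds both chromosome 1 hairpins, had 6 nuclear and 0 cytoplasmic reads of its exons, over 5 sequences found in no other gene. A430106G13Rik, whose exon holds Mir181b-1, had no such read outside the hairpin in either library. Nr6a1, on the strand opposite to the chromosome 2 hairpins, had 1 nuclear and 0 cytoplasmic reads, and Nr6a1os, Gm26936 and Gm44144 had none.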
